A study of Mus musculus with 8 samples.

Results

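The 10 genes described here are imprinted genes with known roles in growth. Cdkn1c, Grb10, Igf2r, Meg3 and Zim1 are transcribed mainly from the maternal copy in most mouse tissues, and Dlk1, Peg3, Plagl1, Mest and Ndn mainly from the paternal copy. They were taken by gene symbol from single-cell count matrices of mouse thymic epithelial cells (TEC), and 10 of 10 were found among the 27514 genes that both gene lists of the series hold. The parental origin of the transcripts was not measured.

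TEC are the stromal cells that support T cell development, with cortical TEC (cTEC) in the outer and medullary TEC (mTEC) in the inner zone of the thymus, and the study contrasted TEC of fetal and adult age. There were 8 libraries of Chromium version 2 single-cell RNA-seq, 1 each of total TEC from E13.5 (E for embryonic day), of E15.5 cTEC, of E17.5 cTEC and of cTEC from newborn (NB) mice. The adult cTEC and adult mTEC groups had 2 libraries each. All groups were wild-type (WT) thymus of strain C57 B6 (CD45.2), with no transgene and no treatment, and the labels used here give no age in weeks for the adults. Live cells (DAPI-) that were EpCAM+ and CD45- were sorted, with Ly51+ UEA-1- added for cTEC and Ly51- UEA-1+ for mTEC. Replicate 1 of both adult groups, E13.5, E15.5 and NB belong to data set 1 (5 libraries), and replicate 2 of both adult groups and E17.5 to data set 2 (3 libraries). The fetal and newborn stages have no replicate, and nothing in the labels says that the adult replicates came from separate animals, so that p-values measure the spread between these libraries.

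Imprinted genes are silenced on the copy inherited from one parent through methylated control regions, and many of them set the size of the embryo, the placenta and organs. Those expressed from the maternal copy often restrain growth and those from the paternal copy often promote it, with exceptions in this group. In several mouse organs, transcripts of this group have been described as a network that declines as growth slows after birth. Cdkn1c (p57Kip2) inhibits cyclin-dependent kinases, Grb10 is an adaptor that dampens insulin and IGF1 receptor signalling, and Igf2r carries the growth factor Igf2 to lysosomes for breakdown. Plagl1 (Zac1) and Peg3 encode zinc finger proteins that act on transcription, Ndn (necdin) encodes a MAGE family protein that restrains cell division, and Dlk1 encodes a membrane protein with the EGF-like repeats of Notch ligands. Meg3 is a long noncoding RNA of the domain that holds Dlk1, Mest encodes a protein with an alpha/beta hydrolase fold, and Zim1 is a zinc finger gene beside Peg3.

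By the GENCODE annotation of GRCm38, 4 of the 10 genes lie on chromosome 7. These are Cdkn1c at chr7:143458339-143461050, Ndn at chr7:62346569-62350262, Peg3 at chr7:6703892-6730431 and its neighbour Zim1 at chr7:6671269-6696450. Dlk1 lies at chr12:109452823-109463336 and Meg3 downstream of it at chr12:109541001-109571726. The others are Grb10 at chr11:11930508-12038683, Igf2r at chr17:12682406-12769664, Mest at chr6:30723547-30748465 and Plagl1 at chr10:13060504-13131694. Meg3 is annotated as a lincRNA and the other 9 as protein-coding genes. Igf2r overlaps the noncoding RNA gene Airn and Mest the gene Copg2, both on the opposite strand, and whether counting used the strand is not given in the sources used here.

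The table of RefSeq promoters (GRCm38.p6) held 13 entries of 300 bases, from 250 before to 50 after a transcription start, for 9 of the 10 genes. Each was searched on both strands for the core of the Plagl1 binding motif (GGGGCCCC) and for the E-box of Myc and Max (CACGTG), since Plagl1 is one of the 10 genes and Myc is the factor that the study examined. Both motifs are palindromes, and neither lies within the other. The Plagl1 core occurred in 1 of the 13 promoters, against 1.08% of all 32851 promoters, and the E-box in 2 of the 13, against 7.15%. The windows that hold them are shown because they are the matches found. They run 5′ to 3′ on the strand of the gene, with the motif in capitals, and lie at chr7:6730603-6730630 (minus strand, Peg3), chr17:12769739-12769764 and chr17:12769698-12769723 (minus strand, Igf2r) and chr10:13090640-13090665 (plus strand, Plagl1).
Peg3: actctgcttgGGGGCCCCtaacactgac
Igf2r, first E-box: acgaggacgtCACGTGagcaggaggc
Igf2r, second E-box: cgactcaggtCACGTGacgctccggg
Plagl1: ctcctcctcaCACGTGacactggagg
The motif in the Peg3 promoter starts 201 bases before the transcription start, those of Igf2r 48 and 7 bases before it, and that of Plagl1 182 bases before it. A match describes these letters only, and no binding was measured. Promoters of the group held a median of 13 CpG dinucleotides, against a median of 7 over all promoters, and the Grb10 promoter at chr11:12037371-12037670 held 45.

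After removal of cells with more than 5% mitochondrial counts or more than 5000 genes, the limits that the study used, 25750 of 28334 cells remained. Cells were clustered, and 25322 epithelial-like cells were used. Clusters with the markers of thymocytes (185 cells), of parathyroid (131 cells) and of thyroid (112 cells) were left out. Libraries held 492 to 8350 epithelial-like cells with a median of 3919 to 11354 unique molecular identifiers (UMIs, counts of captured transcripts) per cell, and 2151147 to 89998087 UMIs in all. The adult cTEC libraries were the smallest, with 2151147 and 4040026 UMIs. The summed level of 7 cTEC markers was 9042 to 20216 CPM (counts per 1000000 UMIs) in the cTEC libraries, 1805 CPM at E13.5 and 575 to 954 CPM in adult mTEC, and that of 5 mTEC markers that include Aire was 1128 and 1260 CPM in adult mTEC and 23.1 to 70.2 CPM elsewhere. Pairs of libraries shared 0 to 84 cell barcodes, where a random draw from the barcode list gives 0.402 to 86.4. Some adult cTEC cells lay in clusters made mostly of adult mTEC and were kept in the sums. The largest such sets were 23 cells of replicate 1 (cluster led by S100a8 and Csn2) and 26 and 11 cells of replicate 2 (led by Bpifa1 and by Fabp9). A further 36 cells of replicate 1 lay in a cluster led by Bpifa1, with 5 adult mTEC cells. No doublet caller was run.

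Cdkn1c had its lowest levels in adult cTEC. It was 226 CPM at E13.5, 93.0 in E15.5 cTEC, 227 at E17.5 and 41.9 at birth, 14.9 and 8.91 in adult cTEC, and 104 and 165 in adult mTEC. The libraries did not follow age step by step, since E17.5 was as high as E13.5, with 95% counting intervals that overlapped, while E15.5 lay below both. E17.5 belongs to the other data set, and it held 170 CPM without its haemoglobin-led cluster, which was kept by a rule changed after the data were seen. The intervals of the adult cTEC libraries also overlapped each other and lay below those of the other 6 libraries. Levels here are UMIs of all epithelial-like cells of a library per 1000000 of their UMIs (CPM), the intervals (exact Poisson) cover counting error only, and fewer cells with a transcript cannot be told apart from less RNA per cell in such sums.

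**Figure D1:**
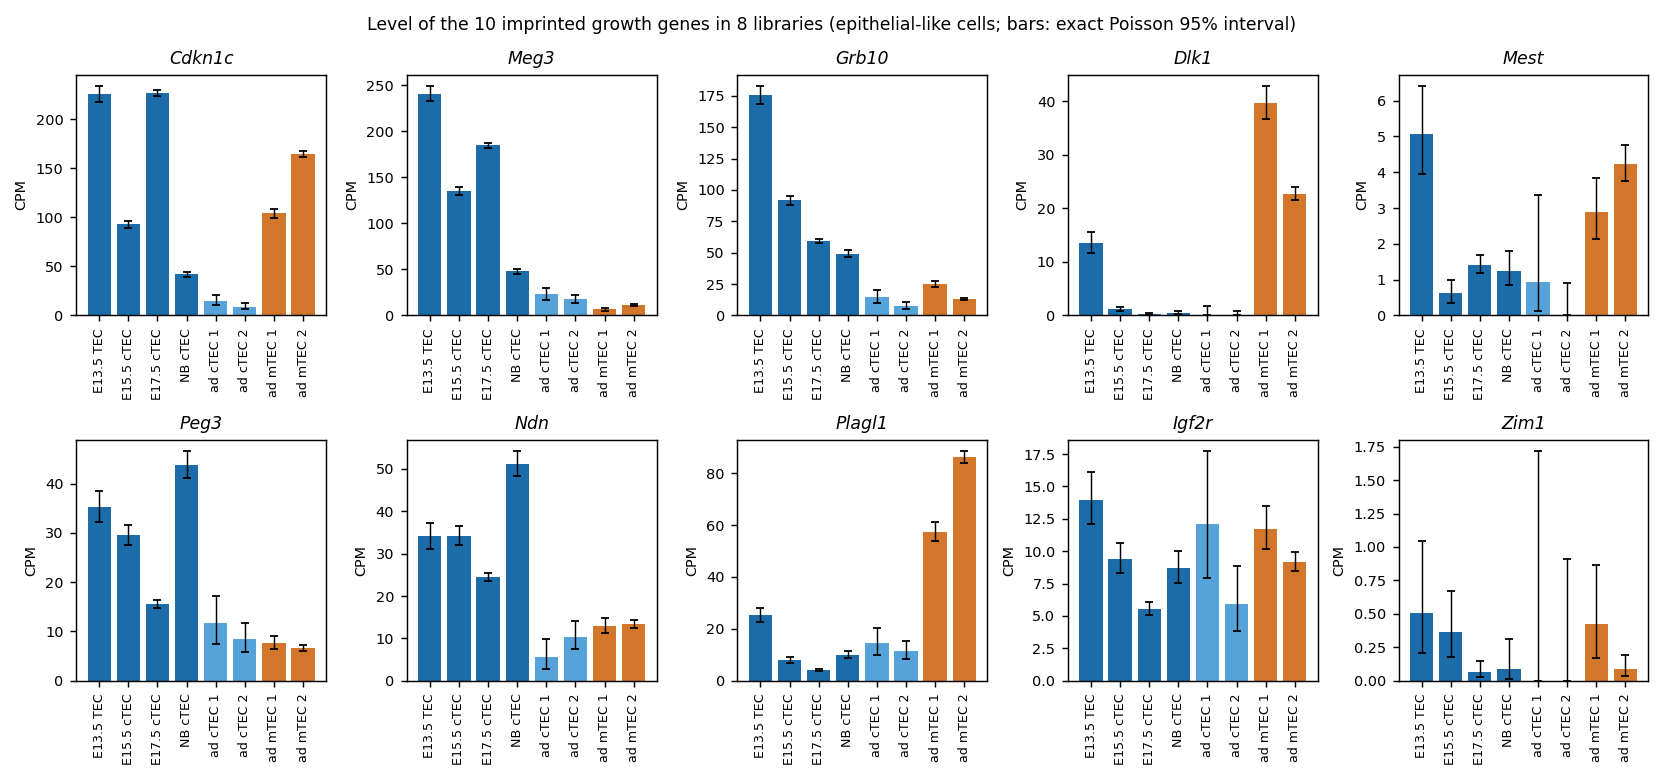
Level (CPM, linear axis from 0, own scale per gene) of the 10 imprinted growth genes in 8 libraries, summed over epithelial-like cells, with exact Poisson 95% intervals as error bars; dark blue is E13.5 TEC and fetal or newborn cTEC, light blue adult cTEC, orange adult mTEC. Cdkn1c, Meg3 and Grb10 are lowest in adult cTEC or adult mTEC, while Dlk1 and Plagl1 are highest in adult mTEC (39.7 and 22.8 CPM for Dlk1, 57.4 and 86.2 CPM for Plagl1).

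Grb10 fell at each age. It was 176 CPM at E13.5, 91.6 in E15.5 cTEC, 59.5 at E17.5, 49.3 at birth and 14.4 and 7.43 in adult cTEC. Adult mTEC held 24.97 and 13.3 CPM. In the order of the 8 libraries, the only neighbours with overlapping intervals were adult cTEC replicate 1 and adult mTEC replicate 2.

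Igf2r, the receptor that clears Igf2, varied least. It was 13.99 CPM at E13.5, 9.43 in E15.5 cTEC, 5.57 at E17.5 and 8.73 at birth, 12.1 and 5.94 in adult cTEC, and 11.7 and 9.18 in adult mTEC. All neighbours in the order of the 8 libraries overlapped, and one adult cTEC replicate stood near the top and the other near the bottom of the order.

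Meg3 was high in the fetal libraries and low in both adult groups. It was 241 CPM at E13.5, 135 in E15.5 cTEC, 185 at E17.5, 47.8 at birth, 22.8 and 17.3 in adult cTEC, and 6.497 and 11.5 in adult mTEC. Only the adult cTEC libraries had overlapping intervals among neighbours in this order.

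Dlk1, in the same imprinted domain, was distributed otherwise. It was 13.48 CPM at E13.5 and 1.13, 0.256 and 0.475 CPM in E15.5, E17.5 and NB cTEC, with 0 UMIs in both adult cTEC libraries and 39.7 and 22.8 CPM in adult mTEC. Adult mTEC was thus highest, E13.5 lay between, and the 5 later cTEC libraries were at or near 0. A count of 0 allows up to 3 UMIs, so that Dlk1 was at least 28.5-fold higher in adult mTEC than in adult cTEC of replicate 1 and at least 30.7-fold higher in replicate 2, with the floor taken per library. In the NB library, 10 of the 11 Dlk1 UMIs were in 2 cells with UMIs of 3 or more of 8 mesenchymal marker genes, and without such cells NB held 0.0433 CPM.

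Peg3 and Ndn were both highest at birth in epithelial-like cells. For Peg3 this depended on the clusters left out, since with all clusters kept it was 48.3 CPM at E13.5 and 43.4 at birth. In epithelial-like cells, Peg3 was 35.3 CPM at E13.5, 29.5 in E15.5 cTEC, 15.6 at E17.5, 43.8 at birth, 11.6 and 8.42 in adult cTEC, and 7.70 and 6.58 in adult mTEC. Ndn was 34.1, 34.2 and 24.5 CPM at E13.5, E15.5 and E17.5, 51.2 at birth, 5.58 and 10.4 in adult cTEC, and 12.9 and 13.4 in adult mTEC. All fetal and newborn libraries lay above all adult ones for Ndn and for Peg3, with 1 overlap of intervals, between E17.5 and adult cTEC replicate 1 for Peg3.

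Plagl1 was highest in adult mTEC. It was 25.4 CPM at E13.5, 7.94 in E15.5 cTEC, 4.22 at E17.5, 9.98 at birth, 14.4 and 11.4 in adult cTEC, and 57.4 and 86.2 in adult mTEC. The lowest level was at E17.5, and the intervals of the adult cTEC libraries overlapped each other. Adult cTEC cells that clustered with adult mTEC were kept, and their part in the Plagl1 level of adult cTEC was not tested.

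Mest and Zim1 were scarce. Mest was 5.07 CPM at E13.5, 0.619 in E15.5 cTEC, 1.42 at E17.5 and 1.25 at birth, 0.930 and 0 in adult cTEC, and 2.89 and 4.23 in adult mTEC. The E17.5 value rested in part on 5 cells with UMIs of 3 or more of 6 endothelial marker genes, which held 38.3% of the Mest UMIs of that library. Zim1 had 38 UMIs in all 8 libraries together, 7 of them at E13.5 and 0 in both adult cTEC libraries, and no order of its levels can be read at this depth. The same holds for the order of Mest and Dlk1 among the cTEC libraries after E13.5, since a count of 0 in adult cTEC allows levels as high as those of some of them.

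Age was tested as a slope over 5 stages, from E13.5 total TEC to cTEC of E15.5, E17.5, NB and the adult (6 libraries, called the cortical line), with a term for the data set. E13.5 was sorted without Ly51 and UEA-1 and held 1805 CPM of the 7 cTEC markers, against at least 9042 in the others, so that age and sort cannot be told apart in its part of the slope. Without E13.5, 3 of the 10 passed, Meg3 (slope -1.14, adjusted p = 0.0172), Grb10 (-1.04, adjusted p = 0.0287) and Cdkn1c (-1.33, adjusted p = 0.0498). The test was edgeR's quasi-likelihood test on summed counts with Benjamini-Hochberg adjustment over all genes, called at an adjusted p under 0.05. Of 9 genes that passed the filter on low counts, 4 fell with stage and none rose, where 3.07% of 14285 genes fell, 5.15% rose and 8.22% changed in either direction. Zim1 did not pass the filter. The log2 slope per stage was -0.97 for Meg3 (SE 0.17, adjusted p = 0.0235), -0.89 for Grb10 (SE 0.17, adjusted p = 0.0304), -1.60 for Dlk1 (SE 0.31, adjusted p = 0.0311) and -1.10 for Cdkn1c (SE 0.25, adjusted p = 0.0479). The slope of Dlk1 depends on how the fit treats the adult libraries at 0 UMIs. The called genes are 3 of the 4 tested genes expressed from the maternal copy and 1 of the 5 from the paternal copy.

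The other 5 genes did not pass this test. Their slopes were -0.66 for Mest, -0.29 for Ndn, -0.21 for Peg3, and -0.05 for both Plagl1 and Igf2r, with adjusted p from 0.266 to 0.877 (edgeR). The median slope of the 9 genes was -0.66, against 0.00 over all genes tested. Leaving out 1 library changed the calls more than the slopes, which then ranged from -1.14 to -0.82 for Meg3, from -1.04 to -0.76 for Grb10 and from -1.33 to -0.88 for Cdkn1c. Without adult cTEC replicate 1, 24 of all genes and none of the 10 passed, with 4 of them at an unadjusted p under 0.05, and without E15.5 cTEC 296 genes and none of the 8 that could be tested (Dlk1 did not pass the filter), with 3 at an unadjusted p under 0.05. Without E17.5 cTEC or without adult cTEC replicate 2, 507 and 501 genes and 2 of the 10 passed. Dlk1 did not pass without E13.5 (slope -0.96, adjusted p = 0.286), and its slope was -2.76 (adjusted p = 0.0067) without cells that carry mesenchymal or endothelial markers. DESeq2 called 4 of the 10 and 2938 genes in all.

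**Figure D2:**
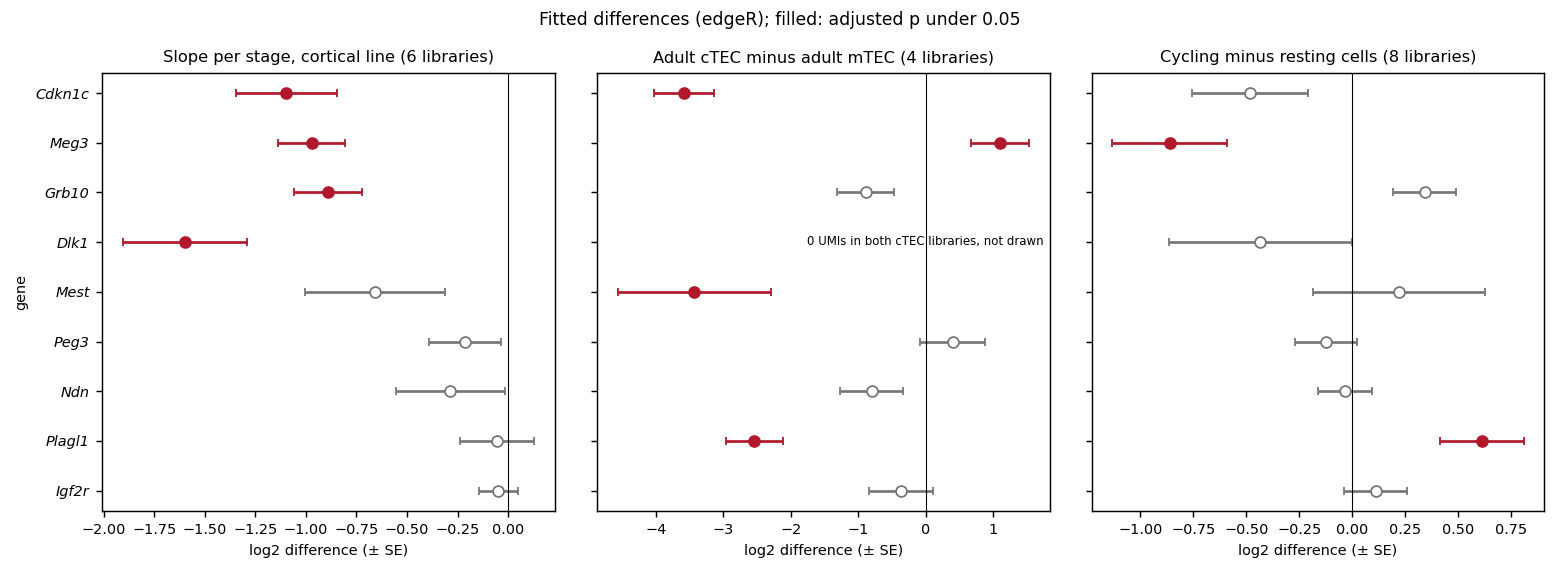
Fitted log2 differences (x axes, own scale per panel) of 9 imprinted growth genes in 3 edgeR comparisons, with bars of 1 SE and filled points for an adjusted p under 0.05. In the left panel, the slope per stage, 4 genes are filled and all lie below 0; in the middle panel, adult cTEC minus adult mTEC, Cdkn1c, Plagl1 and Mest lie below 0 and Meg3 above it, and Dlk1 is not drawn because both adult cTEC libraries held 0 UMIs; in the right panel, cycling minus resting cells, Meg3 lies below and Plagl1 above 0.

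Between the ages, the size of the steps differed by gene. From E13.5 to NB, both in data set 1, Cdkn1c was 5.40-fold higher at E13.5 (counting interval 5.02 to 5.80), Meg3 5.04-fold (4.71 to 5.40), Mest 4.05-fold (2.59 to 6.47), Grb10 3.56-fold (3.32 to 3.83), Plagl1 2.54-fold (2.15 to 3.01) and Igf2r 1.60-fold (1.31 to 1.96). No ratio is given for Dlk1, since 10 of its 11 UMIs at NB were in the 2 cells with mesenchymal markers. Ndn and Peg3 were lower at E13.5 than at NB, with ratios of 0.666 (0.597 to 0.741) and 0.806 (0.722 to 0.899). The order of Peg3 turned with all clusters kept, with 48.3 CPM at E13.5 and 43.4 CPM at NB. From NB to adult cTEC replicate 1, also in data set 1, Ndn was 9.17-fold higher at NB (5.23 to 17.8) and Peg3 3.77-fold (2.54 to 5.85), while Grb10 was 3.42-fold (2.40 to 5.06), Cdkn1c 2.82-fold (1.98 to 4.14) and Meg3 2.10-fold higher (1.57 to 2.85). The value for Ndn rests on 12 UMIs in adult cTEC replicate 1. In data set 2, from E17.5 to adult cTEC replicate 2, the ratios were 25.5 for Cdkn1c (18.4 to 36.4), 10.7 for Meg3 (8.43 to 13.7), 8.02 for Grb10 (5.61 to 11.9), 2.35 for Ndn (1.74 to 3.27) and 1.86 for Peg3 (1.32 to 2.69). Plagl1 went the other way, with a ratio of 0.371 (0.273 to 0.515), and Igf2r had 0.937 (0.623 to 1.48). From NB to adult cTEC replicate 1 the ratios of Igf2r (0.722, 0.479 to 1.13) and Plagl1 (0.693, 0.475 to 1.04) had intervals that include 1. These ratios compare single libraries. The adult cTEC libraries include cells of clusters made mostly of adult mTEC, and the part of such cells in the ratios was not tested.

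Adult cTEC and adult mTEC, each with 2 libraries, were compared with the same test and the data set as a block. Cdkn1c was 11.9 ± 4.22 CPM in adult cTEC and 134 ± 42.9 in adult mTEC (SD, n = 2), Plagl1 12.9 ± 2.14 and 71.8 ± 20.4, Mest 0.465 ± 0.657 and 3.56 ± 0.952, Dlk1 0 in both libraries and 31.2 ± 11.97, and Meg3 20.1 ± 3.86 and 9.01 ± 3.56. The groups did not overlap for these 5 genes, nor for Peg3 and Ndn, which did not pass the test below. Of the 9 genes tested, 4 were lower and 1 higher in adult cTEC, where 20.8% of 15626 genes were lower, 10.9% higher and 31.7% changed in either direction. Calls were thus frequent over all genes in this comparison.

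Cdkn1c was lower in adult cTEC with a log2 difference of -3.59 (SE 0.44, adjusted p = 2.4e-08), and so was Plagl1 with -2.54 (SE 0.42, adjusted p = 7.1e-06). Both passed the threshold in 15 of 15 other settings. Mest had a log2 difference of -3.43 (SE 1.14, adjusted p = 0.0177), based on 2 UMIs in the adult cTEC libraries, and passed in 10 of 15 settings. Dlk1 was called lower in adult cTEC (adjusted p = 2.1e-10), with a fitted value that is no bound because both cTEC libraries held 0 UMIs, and passed in 14 of 15 settings, DESeq2 being the exception (adjusted p = 0.108). Meg3 was higher in adult cTEC by a log2 difference of 1.11 (SE 0.43, adjusted p = 0.0451). That call held in 5 of 15 settings, 1 of which left out cells that were chosen after their Meg3 was seen, and it was lost without the block for the data set (adjusted p = 0.108), without either replicate of either group, and without cells that carry mesenchymal or endothelial markers (0.94, adjusted p = 0.0969). The Meg3 call was also lost with DESeq2, without the filter on low counts, in resting cells only and without the haemoglobin-led cluster.

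Grb10, Ndn, Igf2r and Peg3 did not pass this test. Their log2 differences were -0.89 (adjusted p = 0.109), -0.80 (0.202), -0.36 (0.612) and 0.40 (0.582), by edgeR with Benjamini-Hochberg adjustment. Grb10 was 10.9 ± 4.94 CPM in adult cTEC and 19.1 ± 8.24 in adult mTEC (SD, n = 2), and its groups overlapped. Within a data set it was higher in adult mTEC both times, 1.73-fold (1.20 to 2.58) and 1.79-fold (1.25 to 2.67, counting intervals). The median difference of the 9 genes was -0.89, against -0.14 over all genes tested. Markers of mesenchymal cells differed between the groups as well. The 8 markers summed to 511 and 318 CPM in adult cTEC and to 99.7 and 69.1 CPM in adult mTEC, with Col1a1 and Pdgfra at 0 in replicate 1 and Pdgfra and Pdgfrb at 0 in replicate 2 of adult cTEC. Leaving out cells with 3 or more of these markers is the only check made of their part in the levels of Meg3.

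To compare how many cells carried a transcript, each cell was thinned to 2000 UMIs. With such thinning 32.1% of E13.5 cells had a Cdkn1c UMI, 15.9% of E15.5, 26.9% of E17.5, 8.09% of NB, 2.11% and 1.53% of adult cTEC, and 6.56% and 11.8% of adult mTEC cells. Grb10 was found in 29.8%, 16.8%, 11.2% and 9.96% of cells at E13.5, E15.5, E17.5 and NB, in 3.28% and 1.15% of adult cTEC and in 5.93% and 2.49% of adult mTEC. Shares of Meg3 were 25.4%, 11.7%, 16.3% and 3.73% before adulthood, 1.41% and 1.53% in adult cTEC and 0.442% and 0.838% in adult mTEC.

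**Figure D3:**
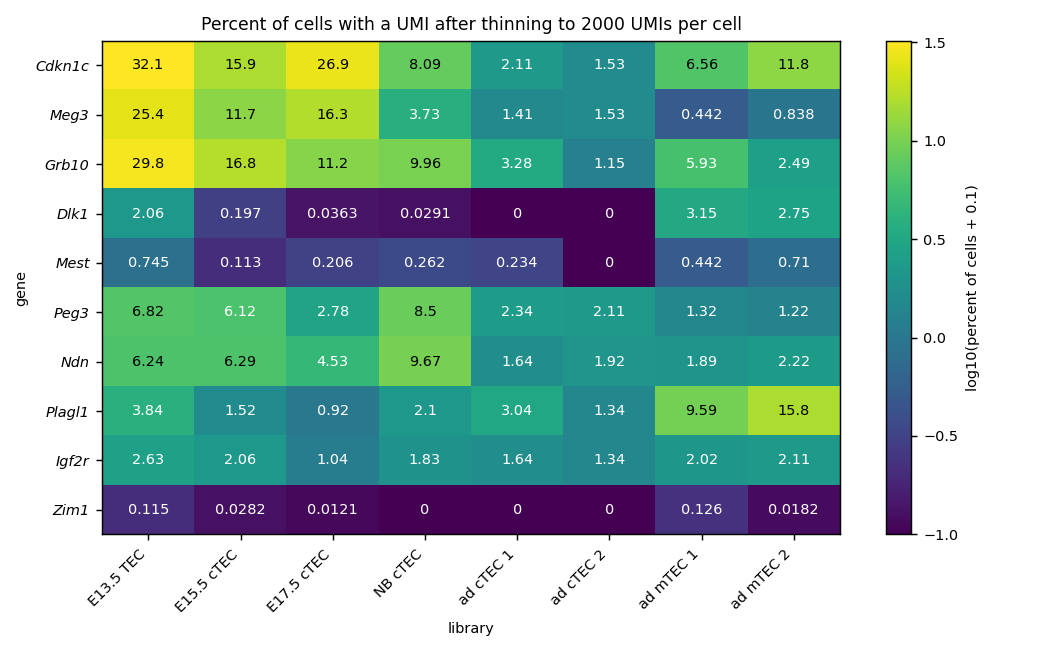
Percent of epithelial-like cells with a UMI of each gene (rows) in each library (columns) after thinning to 2000 UMIs per cell, printed in the cell and coloured by log10 of the percent + 0.1. Cdkn1c, Meg3 and Grb10 reach 25.4% to 32.1% at E13.5, and Plagl1 is highest in adult mTEC with 9.59% and 15.8%.

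Without thinning, the shares for Cdkn1c were 62.7% at E13.5, 62.4% at E17.5 and 4.67% and 5.05% in adult cTEC. Thinning left out 0 to 123 cells per library, the most in adult mTEC replicate 2, and 65 of the 492 cells of adult cTEC replicate 1. Plagl1 was found in 3.84% of cells at E13.5, 0.920% at E17.5, 3.04% and 1.34% of adult cTEC and 9.59% and 15.8% of adult mTEC. Dlk1 was found in 2.06% of E13.5 cells, in 0 of 427 and 522 thinned cells of adult cTEC and in 3.15% and 2.75% of adult mTEC. The 0 cells allow shares of up to 0.703% and 0.575% with a UMI at this depth (3 cells of each total, with exact 95% limits of 0.860% and 0.704%), which is no limit on the cells that carry the transcript. For Peg3, Ndn, Igf2r and Mest the shares stayed below 10% in all libraries, with the highest at NB for Peg3 (8.50%) and Ndn (9.67%).

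The background of free RNA could be gauged only roughly. The thymocyte-like cluster of NB (169 cells, median 8652 UMIs, against 6013 in the epithelial-like cells) had thinned shares of 5.33% for Cdkn1c, 4.73% for Grb10, 2.37% for Meg3, 8.88% for Peg3, 11.2% for Ndn and 3.55% for Igf2r. The NB epithelial-like cells had 8.09%, 9.96%, 3.73%, 8.50%, 9.67% and 1.83% for the same genes. For Peg3, Ndn and Igf2r the epithelial-like share was thus at or below that of the thymocyte-like cluster, and the difference between them is not read as expression. However, this cluster also held the cTEC gene Psmb11 at 1660 CPM, against 702 to 1726 CPM in the epithelial-like clusters of NB, so it is no cell class free of epithelial RNA.

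In adult libraries a few cells held much of the Meg3 RNA. Among cells ranked by Meg3 UMIs, 148 cells held 50% of the UMIs at E13.5, 123 in E15.5 cTEC, 354 at E17.5 and 37 at NB, but 2 and 3 cells in adult cTEC and 2 and 4 cells in adult mTEC. These numbers grow with the cells and UMIs of a library, so they are read against other genes of the same library. In adult cTEC, Igf2r and Peg3, with fewer UMIs than Meg3, took 11 to 13 cells. Before adulthood Meg3 also took fewer cells than genes with fewer UMIs. Cdkn1c took 245 cells at E13.5, 339 in E15.5 cTEC and 240 at NB, and Peg3 took 255 at NB. Cdkn1c took 15 and 56 cells in adult mTEC, while Grb10 and Plagl1, with fewer UMIs, took more, 109 and 280 cells for Grb10 and 125 and 618 cells for Plagl1. Dlk1 in adult mTEC rested on 14 and 54 cells. The level of Meg3 in an adult library is therefore a value of few cells.

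These cells were looked at after their values were seen. In adult mTEC replicate 2, 128 of 5615 cells had UMIs of 3 or more of 8 skeletal muscle genes (Myog, Acta1, Actc1, Myl1, Mylpf, Tnnc2, Chrna1 and Ttn, chosen after the cells were seen), and these 2.28% of cells held 52.1% of the Meg3, 25.1% of the Cdkn1c and 9.13% of the Dlk1 UMIs. Cells with 4 or more of the genes were 24 in number, with Cdkn1c at 6814 CPM and Meg3 at 1083 CPM, against 129 and 5.70 CPM in the other cells of that library. The highest count in a single cell was 715 UMIs of Cdkn1c. In adult mTEC replicate 1, 16 of 1585 cells had 3 or more of the genes. They held 18.5% of the Meg3 and 10.7% of the Ndn UMIs but 1.68% of the Cdkn1c UMIs, so that the high Cdkn1c level of such cells was a value of replicate 2.

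**Figure D4:**
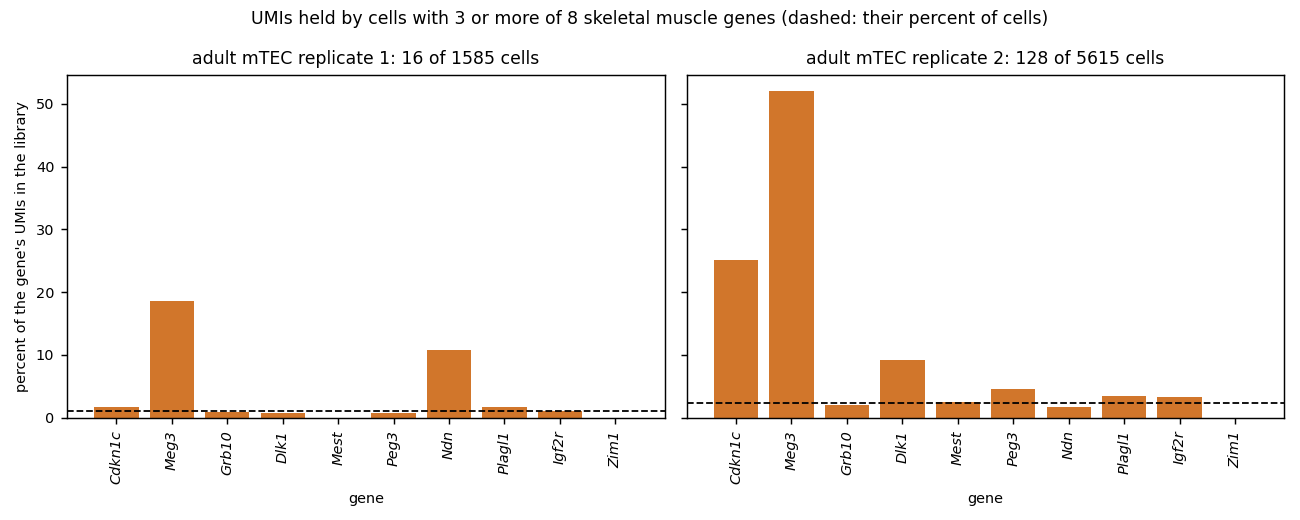
Percent of each gene's UMIs in an adult mTEC library (y axis) held by cells with UMIs of 3 or more of 8 skeletal muscle genes, for the 10 imprinted growth genes (x axis); the dashed line is the percent of cells that these cells make up (1.01% in replicate 1 and 2.28% in replicate 2). Meg3 stands far above the line in both replicates (18.5% and 52.1%), Cdkn1c in replicate 2 (25.1%).

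Without cells that have 3 or more muscle genes or 3 or more of 6 tuft cell markers, adult mTEC held 104 and 124 CPM of Cdkn1c and 5.40 and 5.57 CPM of Meg3. Cdkn1c then still lay above adult cTEC (13.6 and 8.91 CPM) in both replicates. The muscle genes were chosen after these cells were seen to hold much of the Meg3, so the lower Meg3 level of adult mTEC without them follows from that choice. Tuft markers themselves did not go with Cdkn1c in both replicates. The 130 cells of adult mTEC replicate 2 with 3 or more tuft markers held 306 CPM of Cdkn1c, against 162 in the other cells, and the 13 such cells of replicate 1 held 83.0 CPM, against 104.

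Clusters within a library were compared as a description, since they were made from the same cells. At E13.5, the cluster led by Krtdap and Krt5, the latter a keratin gene of mTEC, held 44.5 CPM of Cdkn1c, against 242 and 277 CPM in the other epithelial-like clusters. The same cluster held 340 CPM of Meg3 and 45.4 CPM of Plagl1, above the others (218 and 230 CPM, 20.7 and 22.3 CPM). The glandular clusters of that library, which were left out of all sums, held some of these genes at higher and others at lower levels. The parathyroid-like cluster (124 cells) held 787 CPM of Cdkn1c, 298 of Peg3 and 82.3 of Igf2r, but 1.71 of Dlk1 and 13.7 of Plagl1, and the thyroid-like cluster (107 cells) held 1096 CPM of Meg3, 694 of Cdkn1c, 170 of Mest and 137 of Dlk1, beside 387 CPM of the 8 mesenchymal markers. With all clusters kept, E13.5 held 269 CPM of Cdkn1c, 283 of Meg3, 18.6 of Dlk1 and 13.3 of Mest. It then held 48.3 CPM of Peg3, above NB with all clusters kept (43.4 CPM).

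**Figure D5:**
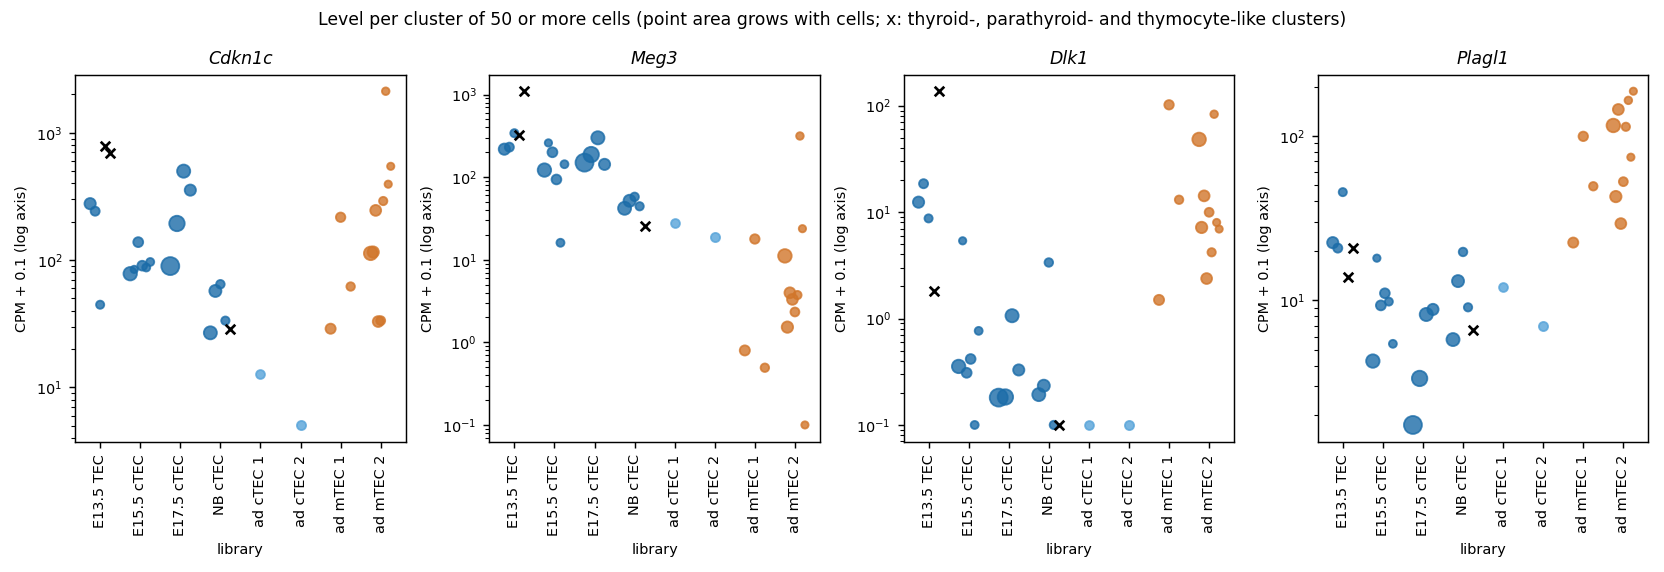
Level (CPM + 0.1, log axis) of Cdkn1c, Meg3, Dlk1 and Plagl1 in each cluster of 50 or more cells, by library (x axis), with point area growing with the number of cells and crosses for thyroid-, parathyroid- and thymocyte-like clusters; points at the lowest tick of 0.1 are clusters with 0 UMIs. In adult mTEC replicate 2 the Cdkn1c points run from 32.8 to 2120 CPM, and the Dlk1 points of both adult mTEC libraries reach 102 and 83.1 CPM, the latter in a cluster where 13 cells with muscle genes hold 78 of its 108 Dlk1 UMIs.

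In fetal cTEC, Cdkn1c and Meg3 also differed between clusters. At E17.5, the cluster led by haemoglobin genes (1574 cells, with Psmb11 at 901 CPM) held 499 CPM of Cdkn1c and 299 of Meg3, the cluster led by Cenpf and Ube2c held 354 and 143 CPM, and the other clusters 89.6 and 194 CPM of Cdkn1c and 150 and 187 CPM of Meg3. Without the haemoglobin-led cluster, E17.5 held 170 CPM of Cdkn1c and 161 of Meg3. At E15.5 a cluster of 230 cells led by Ccnb2 held 15.9 CPM of Meg3, against 93.6 to 260 CPM in the others. Malat1, another nuclear noncoding RNA, was 5541 CPM in that cluster, against 9251 to 17748 CPM, while Neat1, also a nuclear noncoding RNA, was 33.3 CPM there, within the 8.44 to 58.6 CPM of the others.

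In adult mTEC, the cluster led by S100a8 held the most Dlk1 in replicate 1, with 102 CPM, and such a cluster held 48.1 CPM in replicate 2. The clusters led by Ccl11 and Ccl21a, chemokines of the mTEC type that draws T cells, were lowest in Cdkn1c (28.8 and 32.8 CPM) and Plagl1 (22.3 and 29.2 CPM) and highest in Grb10 (41.4 and 24.4 CPM). The cluster of replicate 2 led by Ccl6 and Ccl20 and holding Gp2 had 545 CPM of Cdkn1c and 187 CPM of Plagl1. A further cluster of replicate 2, led by Lrmp and Rgs13 (150 cells), had 2120 CPM of Cdkn1c. Of its 2756 Cdkn1c UMIs, 2284 were in 13 cells with 3 or more muscle genes (13283 CPM), and its other 137 cells held 418 CPM. The same 13 cells held 78 of its 108 Dlk1 UMIs (454 CPM, against 26.6 in the other cells) and 395 of its 409 Meg3 UMIs. The highest cluster held over 3 times the Cdkn1c of the lowest in 4 libraries, at either of the clustering resolutions used.

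The cell cycle was the next comparison, since Cdkn1c, Plagl1 and Ndn are known to restrain division. Each cell was classed as cycling where its score over the joined list of S and G2M phase genes was above 0. Cycling cells were 78.7% at E13.5, 30.7% in E15.5 cTEC, 17.7% at E17.5, 11.9% at NB, 1.63% (8 cells) and 10.3% of adult cTEC, and 12.1% and 18.7% of adult mTEC. The class is a range of a score and not a cell type, and 1.22% to 32.3% of the cells of a library lay within 0.05 of its limit. Cycling cells were deeper, with median UMI counts of 7279 to 17296, against 3913 to 10418 in resting cells.

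Meg3 was higher in resting cells in 7 of 8 libraries, 1 of which, adult cTEC replicate 1, had only 8 cycling cells with 0 UMIs of Meg3. It was 211 CPM in cycling and 405 in resting cells at E13.5, 103 and 154 in E15.5 cTEC, 161 and 191 at E17.5, 60.7 and 45.7 at NB, 0 and 23.4 and then 15.2 and 17.6 in adult cTEC, and 0.637 and 7.86 and then 1.88 and 14.9 in adult mTEC. NB was the exception. Plagl1 was higher in cycling cells in 6 of 8 libraries, with 26.3 and 20.1 CPM at E13.5, 12.2 and 5.42 in E15.5 cTEC, 7.75 and 3.32 at E17.5, 18.99 and 8.53 at NB, 66.0 (4 UMIs) and 12.9 and then 26.6 and 9.10 in adult cTEC. In adult mTEC it was 57.3 and 57.4 CPM in replicate 1 and 52.7 and 98.0 CPM in replicate 2. The order was thus reversed only in adult mTEC replicate 2, and the levels were close to equal in replicate 1.

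Of 9 genes tested over the 16 sums, with the library as a block and the genes of the score left out, Meg3 was lower in cycling cells (log2 difference -0.86, SE 0.27, adjusted p = 0.0311) and Plagl1 higher (0.61, SE 0.20, adjusted p = 0.0362), by edgeR. Over all 16861 genes 23.0% changed, 15% lower and 8.05% higher, and the median difference was -0.15. The other 7 genes did not pass. Grb10 was higher in cycling cells in 8 of 8 libraries (0.34, adjusted p = 0.107), and Cdkn1c was higher in resting cells in 4 of 8 (-0.48, adjusted p = 0.212). In adult cTEC replicate 1 the order of both genes rests on 1 UMI in 8 cycling cells. The call of Meg3 held in 13 of 24 other settings and that of Plagl1 in 10 of 24. With scaling by relative log expression (RLE) or by the total, none of the 10 passed, with 2 at an unadjusted p under 0.05 in each, and DESeq2 called 1.

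The difference between cycling and resting cells was not the same in adult mTEC and in the libraries of the cortical line. The latter are mostly fetal and newborn, and adult cTEC adds 8 and 55 cycling cells. Lineage and age cannot be told apart in this contrast. Cdkn1c was 210 and 314 CPM in cycling and resting cells at E13.5, 88.2 and 95.7 in E15.5 cTEC, 342 and 198 at E17.5, 60.4 and 38.9 at NB, 16.5 and 14.8 and then 9.52 and 8.82 in adult cTEC, and 26.8 and 122 and then 48.4 and 205 in adult mTEC. It was therefore higher in resting cells in both adult mTEC libraries and in E13.5 and E15.5, and higher in cycling cells elsewhere. A term for the difference of the cycling effect, added after the data were seen, was -1.95 for Cdkn1c (adult mTEC minus cortical line, SE 0.25, edgeR adjusted p = 0.000173). It passed for 6 of the 9 genes, 5 of them lower and 1 higher in adult mTEC, where 19.2% of 16861 genes passed, 6.20% lower and 13% higher.

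The other 5 differences were -2.30 for Meg3, -2.06 for Dlk1, -2.12 for Mest, -1.21 for Plagl1 and 0.70 for Grb10. Dlk1 in adult mTEC was 12.4 and 46.1 CPM in cycling and resting cells of replicate 1 and 9.14 and 27.6 CPM in replicate 2. Mest was 0.956 and 3.34 CPM and then 1.999 and 5.02 CPM, while at E13.5 it was 5.66 CPM in cycling and 1.87 in resting cells (4 UMIs). Grb10 was 27.1 and 24.5 CPM and then 19.6 and 11.1 CPM in adult mTEC. Thus resting adult mTEC held more Cdkn1c, Meg3, Dlk1 and Mest than cycling ones in both replicates. In replicate 1 the cycling cells held 2 UMIs of Meg3 and 3 of Mest, and 2 and 4 cells held 50% of the UMIs of these genes in that library. In adult mTEC replicate 2 the cycling cells also formed a cluster of their own, led by Hist1h2ap, with 33.3 CPM of Cdkn1c. The difference for Meg3 was -1.30 without cells that have muscle or tuft genes (adjusted p = 0.026) and missed the threshold without adult mTEC replicate 2 (-3.17, adjusted p = 0.0549), and that of Grb10 did not pass without replicate 2 (0.01) or with the other scalings.

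Meg3 and Dlk1, which lie in one domain, were compared cell by cell after thinning. At E13.5, 6.55% of the cells with a Meg3 UMI also had a Dlk1 UMI, against 0.537% of the other cells. In adult mTEC replicate 2 the shares were 17.4% (8 of 46 cells) and 2.63%, and in replicate 1 42.9% (3 of 7 cells) and 2.98%. In replicate 2, 13 cells with muscle genes held 395 Meg3 and 78 Dlk1 UMIs, and their part in the shares was not tested. The later fetal and newborn libraries held few cells with Dlk1. In E15.5 cTEC 6 of the 7 such cells had Meg3 (1.45% of the cells with Meg3, against 0.0319% of the others), at NB the 1 such cell did, and at E17.5 none of the 3 did, counts too small to read an order from. Cells of one library share their depth and their free RNA, and these shares carry no test.

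Genes that share an imprinted domain with the 10 were read from the same fits. Of 25 such genes 18 were tested for the age slope, and 1 passed, where 8.22% of all genes did. It was Slc22a18, a transporter gene near Cdkn1c, and it rose (1.04 per stage, edgeR adjusted p = 0.0161). Kcnq1ot1, the noncoding RNA of the Cdkn1c domain, was 113 CPM at E13.5, 99.5 at birth and 101 and 76.5 in adult cTEC, with a slope of -0.03 (adjusted p = 0.793), while Cdkn1c fell. Mirg, the noncoding RNA downstream of Meg3, was 1.23 CPM at E13.5, 0.0432 at birth and 0 and 0.248 in adult cTEC (slope -1.34, adjusted p = 0.0823). Of 23 imprinted genes elsewhere 16 were tested, and 3 fell with stage, the growth factor Igf2 (adjusted p = 0.0164), the noncoding RNA H19 (slope -1.56, adjusted p = 0.0228) and Zdbf2 (slope -0.97, adjusted p = 0.0467). H19 was 326 CPM at E13.5, 45.002 in E15.5 cTEC, 17.1 at E17.5, 15.4 at birth and 4.18 and 0 in adult cTEC, and Igf2, the ligand that Igf2r clears, was 81.5 CPM at E13.5 and 0 in both adult cTEC libraries.

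Between the adult lineages, 10 of 15 tested domain partners and 10 of 18 tested imprinted genes elsewhere passed, in both directions, where 31.7% of all genes passed, 10.9% higher and 20.8% lower in adult cTEC. Among partners, 4 were higher in adult cTEC (Copg2, Kcnq1ot1, Phactr2 and Cobl) and 6 lower (Snrpn, Phlda2, Ddc, Mirg, Slc22a3 and Airn). Mirg was lower in adult cTEC (log2 difference -3.93, adjusted p = 0.0298), with 1.68 and 2.75 CPM in adult mTEC, as was Dlk1, while Meg3 was higher. Airn, antisense to Igf2r, was 5.58 and 4.46 CPM in adult cTEC and 15.2 and 10.7 CPM in adult mTEC (log2 difference -1.42, adjusted p = 0.0247). Elsewhere, Sgce, Ppp1r9a, Inpp5f and Zrsr1 were higher and Zdbf2, Gatm, Nnat, Calcr, Asb4 and Rasgrf1 lower in adult cTEC. All values are from edgeR with Benjamini-Hochberg adjustment over all genes tested.

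Partners of the 10 genes in growth control were read from the same fits. Of 10 cyclins, cyclin-dependent kinases and their inhibitors, Ccne1 and Cdk4 fell with stage (slopes -0.70 and -0.51) and Cdkn1b, the p27Kip1 inhibitor related to Cdkn1c, rose (slope 0.38, edgeR adjusted p = 0.049), where 8.22% of all genes passed. Cdkn1b was also higher in adult cTEC than in adult mTEC (log2 difference 1.66, adjusted p = 0.00136), the reverse of Cdkn1c in both comparisons, while Ccnd1 (-1.80, adjusted p = 0.000549) and Ccne1 (-1.60, adjusted p = 0.022) were lower, where 31.7% of all genes passed. Among 5 genes of insulin and IGF signalling, Irs1 and Irs2 were higher and Igf1 lower in adult cTEC than in adult mTEC, and the slope of Igf1 with age just missed the threshold (2.91, adjusted p = 0.051). Among 4 genes of the Notch group, Dlk2, the close relative of Dlk1, was higher in adult cTEC (log2 difference 3.16, adjusted p = 9.2e-07), again the reverse of its relative, and Notch2 was higher too (adjusted p = 2.9e-05).

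Between cycling and resting cells, where 8.05% of all genes were higher and 15% lower in cycling cells, 3 of 20 tested domain partners passed in edgeR, Tssc4 (higher) and Slc22a18 and Slc22a3 (lower). Of 21 tested imprinted genes elsewhere, Nnat was higher and Gatm, Blcap and Asb4 were lower. Of the insulin, IGF and Notch genes above, Igf1r, Igf1, Notch2 and Dlk2 were lower. Cdkn2c, Cdkn2d, Cdkn1b, Ccne1, Cdk2 and Cdk4 were higher and Cdkn1a lower, which is a description only, since the class was made from cell cycle genes.

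The genes most like each of the 10 over the 8 libraries were found by Pearson's r of log2(CPM + 10) among 4807 genes that reached 50 CPM in a library. They were Trappc6a for Cdkn1c (r = 0.963), Tenm3 for Grb10 (0.979), Pdk1 for Meg3 (0.983), Cxcl14 for Dlk1 (0.989), Guk1 for Plagl1 (0.986), Timm22 for Peg3 (0.983), Eif3d for Ndn (0.969), Phip for Igf2r (0.955) and Cmtm8 for Mest (0.938). With a pseudocount of 1 in place of 10 the first gene was another one for Grb10 (Fbn2), Dlk1 (Eif1ax), Peg3 (Sgta) and Ndn (Bex2). Within the group, r was 0.910 for Dlk1 and Plagl1, 0.894 for Peg3 and Ndn and 0.884 for Grb10 and Meg3, but -0.381 for Dlk1 and Meg3. The 8 points differ in depth and data set, the best of many genes is high by selection, and no test was made.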

How the data were processed

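Libraries were prepared with Chromium version 2 chemistry, and the authors deposited counts of unique molecular identifiers per gene and cell, without normalization. The submitters' processing notes name mm10, bcl2fastq 2.17, STAR 2.5.1b and Cell Ranger 2.0.1, while headers in data set 2 give version 3.0.1 of the latter. Here cells above 5% mitochondrial counts or 5000 genes were removed, and each data set was clustered (2000 variable genes, 20 components, 20 neighbours, Leiden resolution 0.8, leidenalg 0.10.2). Clusters were named where at least 3 markers and over 50% of a list were 4-fold higher, and thymocyte-, parathyroid- and thyroid-like ones were left out. The rule was changed after the data were seen so that the haemoglobin-led cluster stayed in. Counts were summed per library (2151147 to 89998087 UMIs) and tested with edgeR 4.0.16 (filterByExpr, TMM, quasi-likelihood test, Benjamini-Hochberg adjustment) in R 4.3.3, with DESeq2 1.42.0 as an alternative, after the steps were tested on simulated data. SE is the estimate over the root of F. Other alternatives were scaling, filters, cells, clusters, data set term, score and left-out libraries. Adult libraries of one replicate number share a data set, which was the block. All 10 genes are named, with partners from fixed lists that passed a test and, per gene, the first of the 3 most like it. The genes and lists were chosen with earlier results of these data known.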

Additional observations from a re-analysis of the deposited data

Results flagged for a closer look

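The effect of cycling differed between adult mTEC and the cortical line for 6 of the 9 genes tested, by a test of the difference itself (edgeR, interaction term added after the data were seen), which 19.2% of all 16861 genes passed. The log2 difference of the cycling effect, adult mTEC minus cortical line, was -1.95 for Cdkn1c, -2.30 for Meg3, -2.06 for Dlk1, -2.12 for Mest, -1.21 for Plagl1 and 0.70 for Grb10. In 7 other settings, Cdkn1c, Dlk1, Mest and Plagl1 passed in 7, Meg3 in 6 and Grb10 in 4. The adult mTEC group had 2 libraries, cycling cells there were deeper than resting ones (medians of 16216 and 17296 UMIs against 8838 and 10418), and the part of depth in these differences was not tested. Since the cortical line is mostly fetal and newborn, lineage and age cannot be told apart in them.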

How the results depend on the processing

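For the age trend, genes called numbered 2938 with DESeq2, 538 in data set 1 alone, 761 in resting cells, 13 for fetal against postnatal (none of the 10 genes, 4 at an unadjusted p under 0.05), and 24 to 1175 when 1 library was left out, with 0 to 4 of the 10. Between adult lineages they numbered 2560 with DESeq2 (2 of the 10) and 1020 to 2874 without 1 replicate (3 to 4 of the 10). Without the replicate block, 3 of the 10 passed rather than 5, Meg3 (1.05, adjusted p = 0.108) and Mest (-3.44, adjusted p = 0.0648) being lost. For cycling, 0 of the 10 passed with RLE scaling, with scaling by the total, in all deposited cells (2 at an unadjusted p under 0.05 in each) and with S phase genes only (0), 1 with DESeq2 and with a score above 0.1, 4 in adult mTEC only, and 0 to 1 with 1 library left out. Of all estimates 30 changed sign, none past the threshold itself, and 29 belong to genes not called. Leaving out 1 library gave age slopes of -0.127 to 0.0446 for Igf2r and -0.179 to 0.366 for Plagl1 (both highest without E13.5) and -0.685 (without NB, adjusted p = 0.0481) to 0.00417 (without adult cTEC replicate 1) for Ndn, lineage differences of -0.801 to 0.0279 for Igf2r, and cycling differences of -0.0107 to 0.135 for Igf2r and -0.130 to 0.570 for Mest. The age slope of Plagl1 was also 0.00465 without NB, 0.0232 in resting cells and 0.143 for fetal against postnatal. For cycling, the sign also changed for Dlk1 (0.483) with DESeq2, Igf2r (-0.0794) and Mest (-0.256) in all cells, Igf2r (-0.0110) and Mest (-0.0826) with all clusters, Mest with a score above 0.1 (-0.134), with G2M genes only (-0.122) and with the thyroid-like cluster (-0.0627), Peg3 (0.0361) with S phase genes only, and Plagl1 (-0.217) and Mest (-1.15) in adult mTEC only. In fetal and newborn libraries it changed for Cdkn1c (0.157), Dlk1 (0.661), Peg3 (0.0263) and Ndn (0.0962), and in the cortical line for Cdkn1c (0.152), Dlk1 (0.694), Peg3 (0.00839) and Ndn (0.0746). The cause was not tested. In the adult cTEC libraries, with 2151147 and 4040026 UMIs, counts of Mest, Dlk1 and Zim1 were 0 to 2, so depth limits their levels.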
